A study of Mus musculus with 13 samples.

Results

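The single library of mature leukemia cells (mAML) was compared with the single library of normal granulocyte-monocyte progenitors (GMP), 2 of the 13 mRNA sequencing libraries in the series, over all 24328 genes in the files. The question was which differences from normal progenitors are found in leukemia cells that have matured. The GMP were wild-type and the mAML cells are labelled as tumor; both came from mouse bone marrow, and the murine leukemia carries the fusion gene MLL-AF10. Further libraries of leukemia stem cells (LSC) of the MLL-AF10 leukemia were used for reference: 1 LSC library, and both untreated 0 h libraries of a time course with A-485, an inhibitor of the acetyltransferases p300 and CBP. The labels give no strain, age, number of animals or sorting scheme, do not say how the mAML cells were separated from the LSC, and do not say whether the single libraries were taken from the culture medium described for the leukemia cells (RPMI 1640 with serum and WEHI-conditioned medium).

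MLL (Kmt2a) is a histone methyltransferase, and its fusions keep HOXA genes and their cofactor MEIS1 active in cells that would normally switch them off. GMP are the progenitors of neutrophils and monocytes, and in normal marrow HoxA expression falls as granule proteins and surface receptors of mature cells appear. Neutrophil granules are filled in sequence, primary granules with myeloperoxidase and elastase at the promyelocyte stage, then secondary granules with lactoferrin, then gelatinase granules.

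Values are CPM (counts relative to library size) scaled by TMM, a normalization that equalizes the bulk of genes between libraries. A ratio is the log2 of mAML over GMP with a prior count of 5, so that 1 is 2-fold and a negative value is lower in mAML, and its interval is the exact 95% interval of the 2 counts. With 1 library on each side, the interval holds counting error only, there is no replicate check and no test was possible. Since GMP are less mature than mAML, maturation and leukemia cannot be told apart in a ratio of these 2 libraries, and in bulk RNA fewer cells of a type and less RNA per cell cannot be told apart. For scale, both libraries of a time in the A-485 course, which are not said to be separate cultures, differed at least 4-fold in 9 to 87 genes (0.108% to 1.01%), with an SD of the log2 ratio of 0.26 to 0.52. The SD of the mAML over GMP ratio across genes was 1.67.

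The GMP library held 24532508 counts, the mAML library 47257642, the single LSC library 40468515, and those at 0 h 9763276 and 8639937. Of 9300 genes with at least 10 CPM in mAML or GMP, 843 (9.06%) were at least 4-fold higher in mAML and 263 (2.83%) at least 4-fold lower. The median over those genes was 0.01. Among the 11738 genes with at least 1 CPM, the set in which list members are counted below, 2598 (22.1%) were higher in mAML by 2-fold or more and 1776 (15.1%) were lower by as much. The 22.1% and 15.1% are the background for each count of list members that follows.

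**Figure D1:**
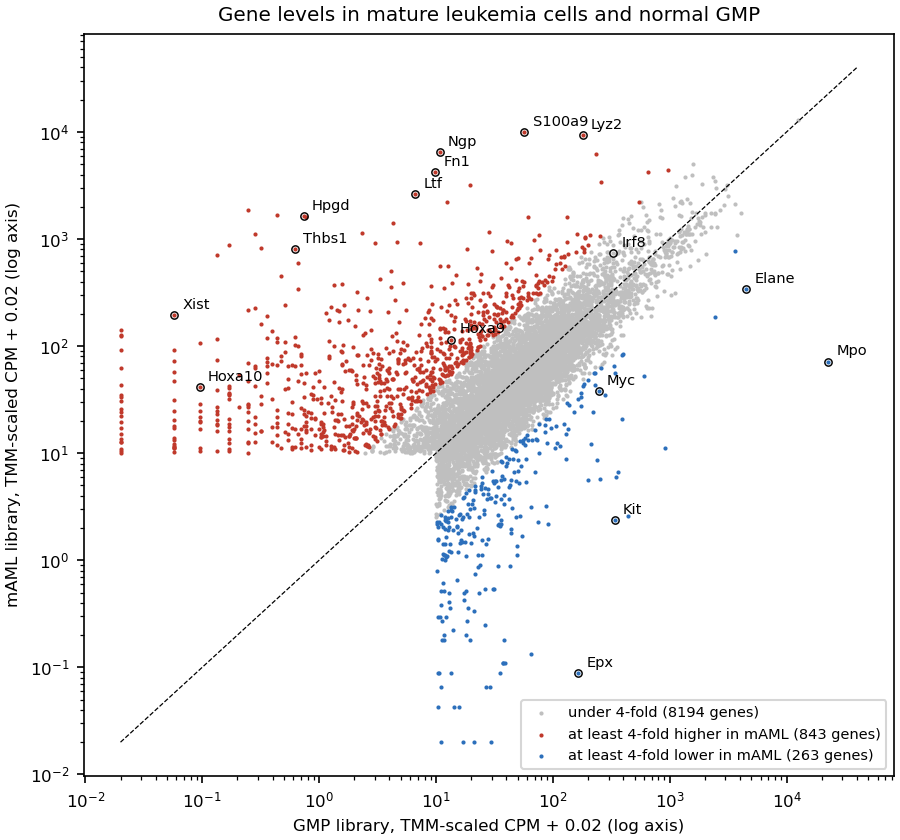
Level of each of the 9300 genes in the GMP library (horizontal, TMM-scaled CPM plus 0.02, log axis) and in the mAML library (vertical, same scale), with 1 point per gene and the dashed line at equal levels. The 843 genes at least 4-fold higher in mAML lie above the line, with secondary granule genes and Fn1 far from it, and Mpo and Kit lie far below it.

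The labels were checked against markers. Mpo, which encodes myeloperoxidase, was at 22748 CPM in GMP, 11374 in LSC, 2383 and 1761 at 0 h and 71.7 in mAML. Kit, the stem cell factor receptor carried by progenitors, was at 337 CPM in GMP, 331 in LSC, 154 and 152 at 0 h and 2.34 in mAML. Both were high in GMP and in every LSC library and low in mAML, a 317-fold and a 136-fold difference from GMP (log2 ratio -8.31, interval -8.36 to -8.26 for Mpo; log2 ratio -7.09, interval -7.47 to -6.89 for Kit). Itgam (CD11b), an integrin of mature myeloid cells, was at 60.9 CPM in GMP, 760.1 in LSC, 637 and 558 at 0 h and 1618 in mAML, so mAML was highest and GMP lowest. Not every progenitor gene followed: Cd34, a stem and progenitor surface protein, was at 361 CPM in GMP, 66.5 in LSC, 347 and 380.2 at 0 h and 247 in mAML, and mAML and GMP were within 2-fold while LSC was lowest.

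The promoters of 4 genes that mark the main contrasts are shown: Hoxa9, the leukemia gene that stayed above GMP in mAML; Mpo and Elane, the primary granule genes that were lower; and Ltf, the secondary granule gene that was higher. Each is the 250 bases before the annotated start, 5′ to 3′ on the gene's strand, from RefSeq on GRCm38.p6 (the files were made on mm9), at chr6:52227371-52227620 on the minus strand, chr11:87793534-87793783 on the plus strand, chr10:79886062-79886311 on the plus strand and chr9:111019042-111019291 on the plus strand. Capitals mark matches to GAGGAAGT, a PU.1 motif, in Mpo and Elane, and to TTGCNNAA, a loose C/EBP motif, in Ltf.
Hoxa9: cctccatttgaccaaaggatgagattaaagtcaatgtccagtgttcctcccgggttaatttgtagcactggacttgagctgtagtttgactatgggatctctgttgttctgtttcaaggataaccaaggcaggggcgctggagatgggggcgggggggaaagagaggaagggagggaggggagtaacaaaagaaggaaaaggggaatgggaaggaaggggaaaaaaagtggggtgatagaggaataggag
Mpo: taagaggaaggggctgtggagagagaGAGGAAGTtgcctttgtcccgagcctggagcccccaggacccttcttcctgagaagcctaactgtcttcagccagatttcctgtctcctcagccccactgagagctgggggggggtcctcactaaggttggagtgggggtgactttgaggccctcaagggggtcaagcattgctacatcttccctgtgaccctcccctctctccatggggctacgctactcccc
Elane: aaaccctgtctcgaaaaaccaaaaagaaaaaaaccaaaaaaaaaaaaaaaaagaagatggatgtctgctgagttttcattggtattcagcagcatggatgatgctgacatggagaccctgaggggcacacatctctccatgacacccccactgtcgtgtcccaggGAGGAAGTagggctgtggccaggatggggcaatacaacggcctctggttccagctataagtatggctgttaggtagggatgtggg
Ltf: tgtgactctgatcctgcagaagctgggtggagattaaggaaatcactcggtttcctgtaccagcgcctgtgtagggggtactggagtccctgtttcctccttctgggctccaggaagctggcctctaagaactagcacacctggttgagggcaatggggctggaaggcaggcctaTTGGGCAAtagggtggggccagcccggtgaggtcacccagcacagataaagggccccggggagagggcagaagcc

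Motifs were searched on both strands over the 250 bases before the start. GAGGAAGT was in 4 of the 12 genes on the primary granule list with a promoter in the RefSeq table (Mpo, Elane, Prtn3 and Ctsc). It was in 196 of 7231 genes with at least 10 CPM (2.71%). Among genes at least 4-fold apart, it was in 4.59% of those higher in mAML and in 1.94% of those lower. Ctsc was higher in mAML and the other three were lower. TTGCNNAA, which contains the motif TTGCGCAA, was in 5 of 14 secondary granule promoters (Ltf, Ngp, Lcn2, Fcnb and Mmp8), in 7 of 22 promoters of gelatinase granule and late neutrophil genes and in 541 of 7231 (7.48%). None of 7 HoxA promoters held these motifs, the E-box CACGTG or TGATTTAT (a HOXA9 motif with PBX or MEIS); Hoxa2 held TGATTGAT, a HOX motif with PBX that was in 22 of 7231 promoters. These lists are small, and a match is only a description of the letters.

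HoxA genes were higher in mAML than in GMP. HOXA proteins are homeodomain factors that keep myeloid progenitors self-renewing, and Hoxa9 is the best known of them in leukemia. Hoxa9 was at 13.5 CPM in GMP, 179 in LSC, 95.8 and 118 at 0 h and 115 in mAML. Every leukemia library was above GMP, and mAML lay within the range of the LSC libraries. Hoxa9 in mAML was 8.42-fold above GMP (log2 ratio 3.07, interval 2.93 to 3.25). Of 28 HoxB, HoxC and HoxD genes, 3 reached 1 CPM in mAML or GMP. Among them, 1 was at least 2-fold higher in mAML and 1 lower. Hoxb2 was higher, at 0 CPM in GMP, 4.69 in LSC, 13.9 and 15.1 at 0 h and 4.36 in mAML. Hoxb4 was lower, at 5.99 CPM in GMP, 1.87 in LSC, 6.89 and 9.35 at 0 h and 2.11 in mAML. Hoxb3 was within 2-fold (1.24 CPM in GMP and 0.998 in mAML).

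Hoxa10 was at 0.0754 CPM in GMP, 63.9 in LSC, 111 and 145 at 0 h and 41.3 in mAML, with 2 counts in GMP (log2 ratio 7.58, interval 7.24 to 12.15). The GMP count is so low that the upper end of the interval is wide. Hoxa5 was at 1.54 CPM in GMP, 102 in LSC, 11.5 and 14.5 at 0 h and 67.96 in mAML (log2 ratio 5.34, interval 5.02 to 5.94), so mAML was near LSC and well above the 0 h libraries. Hoxa7, at 5.16 CPM in GMP, 18.7 in LSC, 11.6 and 13.8 at 0 h and 20.7 in mAML, had the second smallest ratio among the HoxA genes with at least 1 CPM (log2 ratio 1.97, interval 1.74 to 2.27), and GMP already expressed it. Hoxa3 was at 0.904 CPM in GMP, 20.4 in LSC, 12.4 and 15.3 at 0 h and 14.7 in mAML (log2 ratio 3.83, interval 3.43 to 4.67). Hoxa2, Hoxa4 and Hoxa6 had ratios of 3.59, 1.57 and 4.13, from levels under 10 CPM in mAML. In all, 9 of 9 HoxA genes with at least 1 CPM were at least 2-fold higher in mAML and none was lower, with a median log2 ratio of 3.59.

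On the deposited TPM scale, which corrects for transcript length, Hoxa5 at 53.3 TPM and Hoxa9 at 51.7 TPM were the highest HoxA genes in mAML, followed by Hoxa10 at 23.2. In GMP the order was Hoxa9 at 7.58 TPM and Hoxa7 at 4.80 TPM, with all others under 2 TPM. Hoxa11 was near absent from mAML (0.136 CPM) and from the single LSC library (0.0997 CPM) but stood at 85.2 and 124 CPM in the 0 h LSC libraries. The LSC libraries are therefore not alike in HoxA genes, and the difference between them was not tested.

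**Figure D2:**
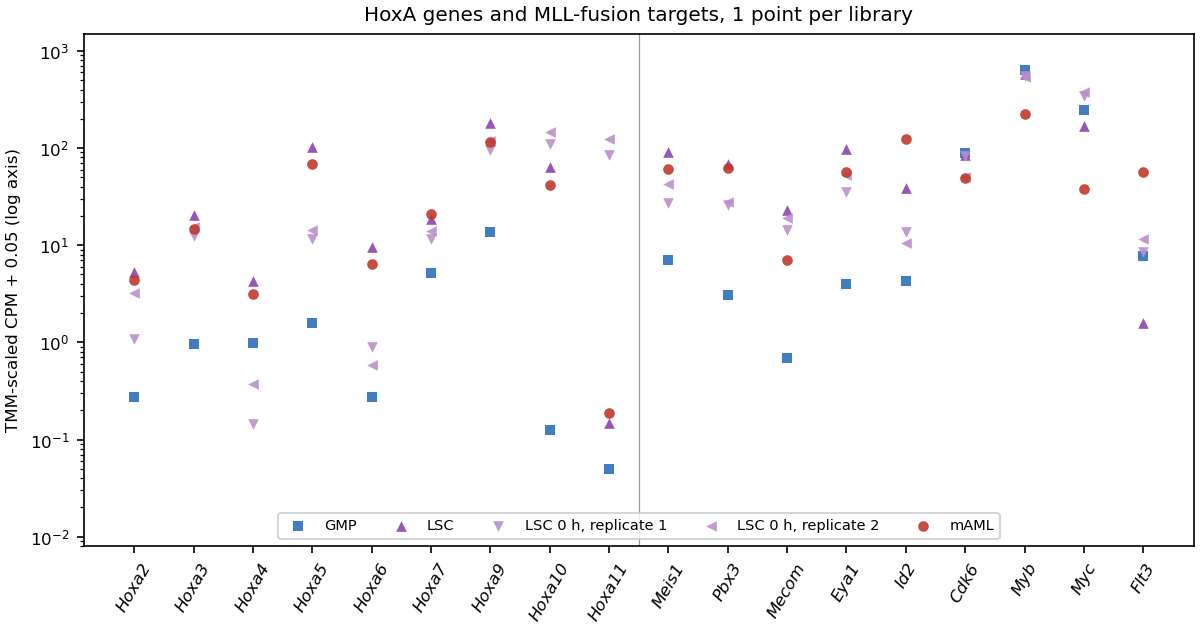
Levels of 9 HoxA genes (left of the line) and of other MLL-fusion targets (right) in 5 libraries, in TMM-scaled CPM plus 0.05 on a log axis, with 1 point per library. For the HoxA genes to Hoxa10, Meis1, Pbx3 and Eya1 the mAML point is above the GMP point, whereas for Myb and Myc it is below.

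HOX proteins bind DNA with MEIS and PBX partners. Meis1 was at 6.93 CPM in GMP, 90.2 in LSC, 26.99 and 42.7 at 0 h and 61.1 in mAML (log2 ratio 3.11, interval 2.92 to 3.36). Pbx3 was at 3.05 CPM in GMP, 68.8 in LSC, 25.9 and 27.8 at 0 h and 62.9 in mAML (log2 ratio 4.30, interval 4.05 to 4.70). For both, mAML was above GMP and above both 0 h libraries, and below LSC. Other cofactors did not share this: Pbx2 and Pknox1 were within 2-fold of GMP (ratios 0.56 and 0.12), and Tgif1 and Tgif2, repressors that bind the same sites as MEIS, were lower (32.6 and 3.93 CPM and 13.04 and 0.477 CPM in GMP and mAML). Of 9 cofactors with at least 1 CPM, 3 were at least 2-fold higher and 3 lower.

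Among 28 listed MLL-fusion targets with at least 1 CPM, 16 were at least 2-fold higher in mAML and 3 lower, with a median of 1.58. The 16 include Hoxa3, Hoxa5, Hoxa6, Hoxa7, Hoxa9, Hoxa10, Meis1 and Pbx3, already counted above. This count is therefore not separate from those of the HoxA genes and the cofactors. Eya1, a phosphatase and transcription cofactor, was at 3.96 CPM in GMP, 97.9 in LSC, 35.1 and 53.1 at 0 h and 56.3 in mAML (log2 ratio 3.79, interval 3.55 to 4.13). Mecom, which encodes the zinc-finger factor EVI1, was at 0.641 CPM in GMP, 22.9 in LSC, 14.4 and 18.8 at 0 h and 7.06 in mAML (log2 ratio 3.20, interval 2.76 to 4.26). Eya1 in mAML was thus near the 0 h libraries, while Mecom was above GMP and below every LSC library. Id2, an inhibitor of helix-loop-helix factors, was at 4.18 CPM in GMP, 38.5 in LSC, 13.7 and 10.5 at 0 h and 125 in mAML and was highest in mAML. Flt3, a cytokine receptor, was at 7.72 CPM in GMP, 1.55 in LSC, 8.40 and 11.5 at 0 h and 57.2 in mAML and was likewise highest in mAML.

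The listed targets Myc and Myb were lower in mAML. Myc, a driver of ribosome production and growth, was at 246 CPM in GMP, 167 in LSC, 342 and 379 at 0 h and 38.1 in mAML (log2 ratio -2.69, interval -2.77 to -2.61). Myb, a factor of progenitor proliferation, was at 641 CPM in GMP, 582 in LSC, 551 and 533 at 0 h and 225 in mAML (log2 ratio -1.51, interval -1.55 to -1.48). In both, mAML was the lowest of the 5 libraries, and GMP lay at or near the LSC levels. Cdk6, a G1 kinase, was at 88.1 CPM in GMP, 84.7 in LSC, 82.6 and 49.7 at 0 h and 49.4 in mAML, within 2-fold of GMP. Zfp521, the remaining target at least 2-fold lower beside Myc and Myb, was at 3.47 CPM in GMP and 0.0227 in mAML.

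Genes of the MLL-fusion machinery differed little. Of 23 members of the fusion and elongation complexes, 1 was at least 2-fold higher in mAML, Crebbp, and 3 lower (Aff3, Mllt3 and Psip1). Their median was 0.03, and its sign flips to -0.18 with library-size scaling. Kmt2a was at 109 CPM in GMP, 109.6 in LSC, 92.8 and 102 at 0 h and 97.1 in mAML and Mllt10, the AF10 gene, at 95.02 CPM in GMP, 135 in LSC, 91.6 and 104 at 0 h and 109 in mAML. Neither separated GMP from the leukemia libraries, and reads of a fusion transcript were not separated from those of its partner genes. Ep300 and Crebbp, the targets of A-485, were at 116 CPM in GMP, 150.3 in LSC, 113 and 124 at 0 h and 223 in mAML, and at 27.3 CPM in GMP, 35.6 in LSC, 36.1 and 33.7 at 0 h and 57.98 in mAML.

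Genes apart from GMP in the 0 h libraries were then chosen without the mAML and LSC libraries: 461 genes (5.44% of those with at least 10 CPM at 0 h) exceeded GMP by 4-fold or more in both 0 h LSC libraries, and 285 (3.37% of those with at least 10 CPM in GMP) fell short of it by as much. They were read out as mAML over the single LSC library, which shares no library with that choice. Of the 461, 374 had at least 1 CPM in LSC or mAML. The other 87 were under 1 CPM in both, although at least 10 CPM at 0 h, and are left out of the shares that follow. Of the 374, 171 (45.7%) lay within 2-fold of LSC in mAML, against 74.99% of all genes. In mAML 152 (40.6%) were higher by 2-fold or more and 51 (13.6%) lower, against 16.4% and 8.65% of all genes. The chosen genes were thus more often apart between mAML and LSC, in both directions, than genes at large. They had been picked for a large difference between libraries and at a higher minimum level, so they are not matched to all genes. The excess therefore cannot be read as a trait of leukemia genes. The median was 0.57, and 0.97 when the genes were chosen at 8-fold. The choice also took in Xist and 11 glycolysis and hypoxia genes in the higher set and the 4 Y-linked genes in the lower set.

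Of the 461, 5 were HoxA genes. All 4 that could be read (Hoxa3, Hoxa5, Hoxa9 and Hoxa10) were within 2-fold of LSC in mAML, with ratios of -0.47, -0.59, -0.64 and -0.63. The other, Hoxa11, was at 85.2 and 124 CPM at 0 h but only 0.0997 in LSC and 0.136 in mAML. Among the chosen MLL-fusion targets, Pbx3 (-0.13) and Eya1 (-0.80) were within 2-fold as well, and Mecom (-1.68) was lower. The largest losses were in genes outside these lists: Ankrd63 at 1.13 CPM in GMP, 15.4 in LSC, 58.9 and 58.02 at 0 h and 0.272 in mAML, and Rhoj, a small GTPase, at 1.70 CPM in GMP, 10.3 in LSC, 51.5 and 42.2 at 0 h and 0.159 in mAML. Vegfa, the vascular growth factor, was at 33.5 CPM in GMP, 149 in LSC, 233 and 170.4 at 0 h and 8.33 in mAML. In these 3 genes mAML was below every other library, GMP included. Myo18b, an unconventional myosin, was at 6.48 CPM in GMP, 231 in LSC, 70.96 and 45.6 at 0 h and 10.6 in mAML, and mAML was near GMP.

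At the other end, Itgb7, an integrin beta chain, was at 12.6 CPM in GMP, 1.27 in LSC, 310.4 and 298 at 0 h and 561 in mAML, and S100a6, a calcium-binding protein, at 4.11 CPM in GMP, 1.94 in LSC, 137 and 125 at 0 h and 504 in mAML. Emilin2, an extracellular matrix protein, was at 49.96 CPM in GMP, 2.74 in LSC, 589 and 588 at 0 h and 668 in mAML, and Rara, a retinoic acid receptor, at 4.86 CPM in GMP, 0.474 in LSC, 47.6 and 51.4 at 0 h and 85.9 in mAML. All 4 were high in mAML and in the 0 h libraries but low in the single LSC library, lower there than in GMP. The position of mAML for such genes thus depends on which LSC library it is set beside.

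Of the 285 genes lower in 0 h LSC than in GMP, 258 could be read; 104 (40.3%) were at least 2-fold higher in mAML than in LSC and 48 (18.6%) lower, with a median of 0.49. That median turned to -0.094 when the genes were chosen at 2-fold, so its direction depends on the choice. All 10 listed monocyte genes among the 285 were at least 2-fold higher in mAML than in LSC. Irf8, the factor of monocyte fate, was at 328 CPM in GMP, 20.7 in LSC, 29.8 and 33.5 at 0 h and 743 in mAML, and Csf1r, the M-CSF receptor, at 177 CPM in GMP, 101 in LSC, 3.59 and 4.68 at 0 h and 845 in mAML. Both were lowest in LSC libraries and highest in mAML. Primary granule genes went the other way, since LSC exceeded mAML by 2-fold or more in 4 of the 5 chosen, Mpo (-7.31) and Elane (-4.23) among them. Vcam1, an adhesion molecule, was at 51.9 CPM in GMP, 132 in LSC, 0.472 and 0.638 at 0 h and 2.56 in mAML, and Afap1, an actin-filament adaptor, at 54.4 CPM in GMP, 44.8 in LSC, 1.79 and 3.40 at 0 h and 1.66 in mAML.

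**Figure D3:**
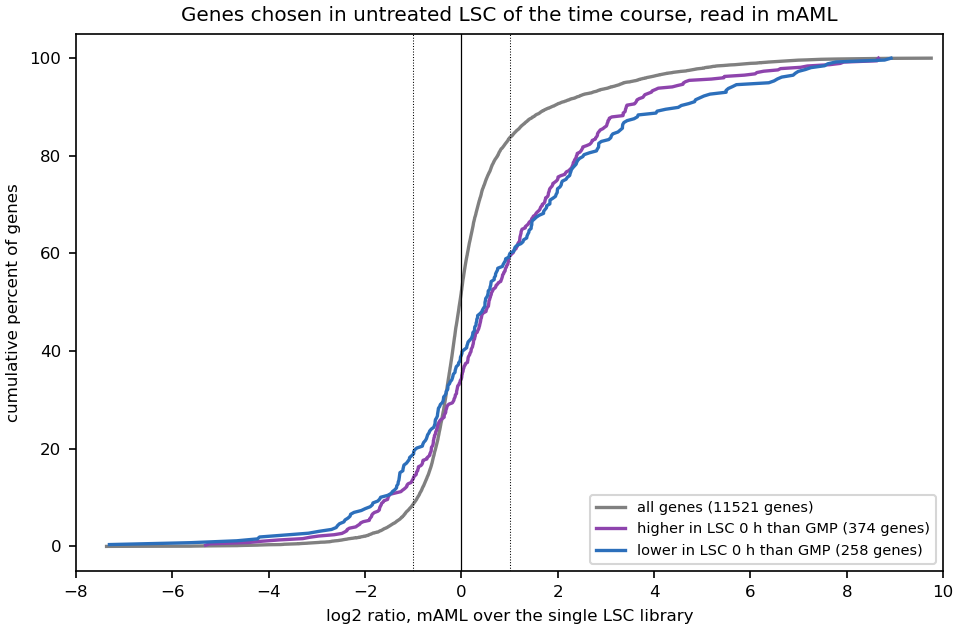
Cumulative percent of genes (vertical) against the log2 ratio of mAML over the single LSC library (horizontal), for all 11521 genes with at least 1 CPM and for the genes chosen as at least 4-fold higher (374) or lower (258) in the 0 h LSC libraries than in GMP. Both chosen sets reach further to the right than all genes, with 40.6% and 40.3% of them above 1 (dotted line), and 13.6% and 18.6% below -1.

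Granule genes separated by stage. Elane, neutrophil elastase, was at 4496 CPM in GMP, 6392 in LSC, 626 and 488 at 0 h and 339.6 in mAML (log2 ratio -3.73, interval -3.75 to -3.70), and Prtn3, proteinase 3, at 3623 CPM in GMP, 3876 in LSC, 773 and 599 at 0 h and 781 in mAML (log2 ratio -2.21, interval -2.23 to -2.20). Ctsg, cathepsin G, was at 2441 CPM in GMP, 1876 in LSC, 2355 and 2760.2 at 0 h and 186 in mAML and Ms4a3, a membrane protein of committed progenitors, at 916 CPM in GMP, 805 in LSC, 281 and 204 at 0 h and 11.3 in mAML. Elane, Ctsg and Ms4a3 were lowest in mAML, whereas Prtn3 in mAML was no lower than in the 0 h libraries. Of 14 genes on the primary granule list, 11 were at least 2-fold lower in mAML. In 1, Ctsc, which activates the granule proteases, mAML was higher (95.4 CPM in GMP and 260.1 in mAML). The list summed to 42355 CPM in GMP, 30174 in LSC, 13114 and 12161 at 0 h and 4426 in mAML. It includes the chaperone genes Calr and Hsp90b1, which are not granule proteins and make up much of the mAML sum. Calr, counted among the 11, was at 3766 CPM in GMP and 1082 in mAML. Hsp90b1 was at 1636 CPM in GMP and 965 in mAML.

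Secondary granule genes were all at least 2-fold higher in mAML than in GMP (16 of 16, median 7.45). Ltf, lactoferrin, was at 6.59 CPM in GMP, 91.6 in LSC, 6.79 and 0.850 at 0 h and 2623 in mAML (log2 ratio 8.61, interval 8.42 to 8.86). Ngp, neutrophilic granule protein, was at 10.7 CPM in GMP, 810.1 in LSC, 884 and 197 at 0 h and 6523 in mAML (log2 ratio 9.23, interval 9.08 to 9.42), and Camp, the cathelicidin, at 4.26 CPM in GMP, 1005 in LSC, 16.04 and 0.638 at 0 h and 1401 in mAML. In these 3 genes mAML was highest and GMP among the lowest. The duplicates at 0 h disagreed: of the 17 genes at least 4-fold apart between them, 10 are on the secondary granule or late neutrophil lists, all of them higher in replicate 1. Chil3, a chitinase-like protein, was at 19.5 CPM in GMP, 11506 in LSC, 268 and 144 at 0 h and 3168 in mAML, and Chil1 at 0.452 CPM in GMP, 928 in LSC, 143 and 83.4 at 0 h and 455 in mAML; both were higher in LSC than in mAML. Fcnb, a ficolin, was at 39.7 CPM in GMP, 639 in LSC, 0.0944 and 0.106 at 0 h and 105 in mAML and was also highest in LSC.

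Of the gelatinase granule and late neutrophil genes, 26 of 27 were at least 2-fold higher (median 5.03), the remaining one being Csf3r, the G-CSF receptor (164 CPM in GMP and 206 in mAML). S100a9 was at 56.9 CPM in GMP, 1569 in LSC, 405 and 74.9 at 0 h and 9898 in mAML, and S100a8, its partner in calprotectin, at 232 CPM in GMP, 1789.5 in LSC, 216 and 50.3 at 0 h and 6211 in mAML; per length they were the highest genes in mAML, at 36686 and 36075 TPM. Mmp9, gelatinase B, was at 2.30 CPM in GMP, 36.1 in LSC, 1.70 and 0 at 0 h and 1136 in mAML (log2 ratio 8.86, interval 8.59 to 9.34). The formyl peptide receptors Fpr1 and Fpr2 were at 0.0754 and 108 CPM and at 0.264 and 227 CPM in GMP and mAML. Retnlg, a late neutrophil transcript, was at 2.56 CPM in GMP, 0.848 in LSC, 2.36 and 0.213 at 0 h and 282 in mAML, and Cxcr2, the receptor for neutrophil release from marrow, at 10.7 CPM in GMP, 11.2 in LSC, 90.9 and 94.3 at 0 h and 146 in mAML. Retnlg and Mmp9 were far higher in mAML than in any other library, while Cxcr2 was already high in the 0 h libraries. The stefin A genes (Stfa1, Stfa2, Stfa2l1, Stfa3 and BC100530), protease inhibitors of neutrophils, had ratios from 10.87 to 12.30, and as near-identical copies their reads may be split between them.

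**Figure D4:**
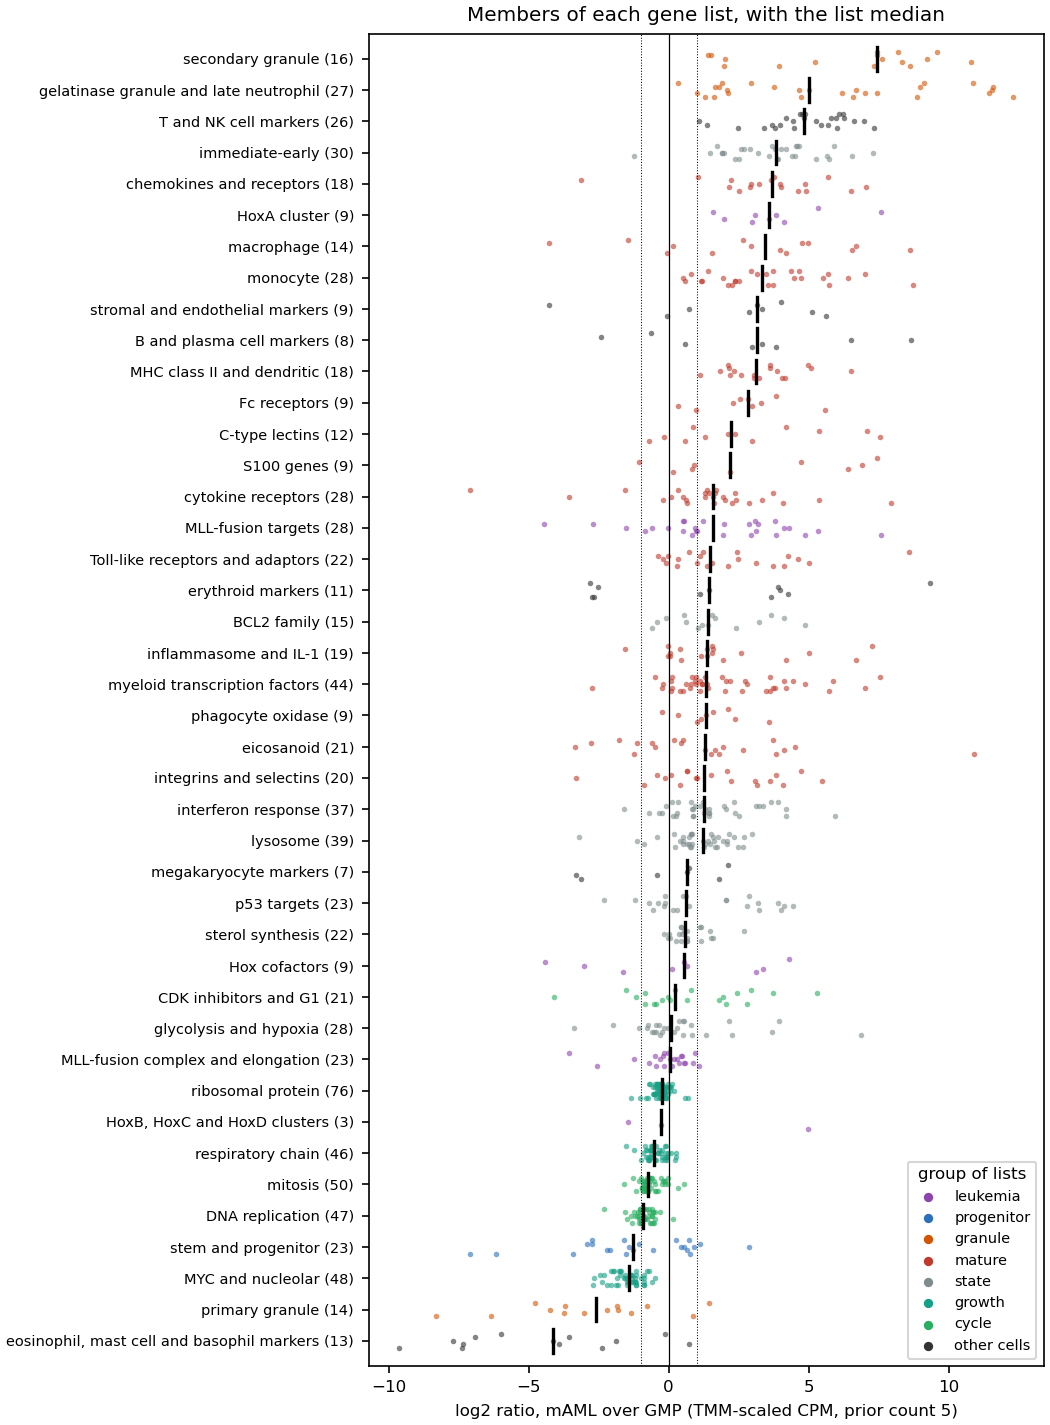
Log2 ratio of mAML over GMP (horizontal) for each member with at least 1 CPM of 42 gene lists (rows, with the number of members), the black bar being the list median and the dotted lines 2-fold. Secondary granule genes (7.45) lie at the top and primary granule genes (-2.61) and eosinophil, mast cell and basophil markers (-4.12) at the bottom, with ribosomal protein genes (-0.25) in a narrow band near 0.

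Monocyte genes were higher in mAML as well, 25 of 28 by at least 2-fold and none lower (median 3.32). Fn1, fibronectin, was at 9.83 CPM in GMP, 4.79 in LSC, 0.472 and 0.106 at 0 h and 4229 in mAML (log2 ratio 8.73, interval 8.57 to 8.93). Lyz2, lysozyme, was at 179 CPM in GMP, 766 in LSC, 242 and 173 at 0 h and 9364 in mAML (log2 ratio 5.70, interval 5.66 to 5.75), and Ccr2, the chemokine receptor of marrow monocytes, at 118 CPM in GMP, 21.8 in LSC, 10.9 and 10.5 at 0 h and 674 in mAML. Fn1 and Ccr2 were at their lowest in the LSC libraries. Mpeg1, perforin-2, was at 259.6 CPM in GMP, 476 in LSC, 23.3 and 21.6 at 0 h and 3426 in mAML. Csf1r (log2 ratio 2.25, interval 2.21 to 2.30) and Klf4 (log2 ratio 3.49, interval 3.38 to 3.61), a factor of monocyte maturation at 23.7 CPM in GMP, 2.54 in LSC, 0 and 0 at 0 h and 267 in mAML, had the same order of libraries as Ccr2. Ly6c2, the inflammatory monocyte antigen, was abundant in all 5 libraries (1879 CPM in GMP, 1794 in LSC, 2701 and 1907 at 0 h and 3259.9 in mAML) and within 2-fold of GMP.

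Macrophage genes were mixed. Of 14 with at least 1 CPM, 10 were at least 2-fold higher and 2, Vcam1 and Apoe, lower. Gpnmb, a lysosomal glycoprotein, was at 0.339 CPM in GMP, 7.55 in LSC, 1.89 and 8.61 at 0 h and 189 in mAML, and Cd163, the hemoglobin scavenger receptor, at 1.47 CPM in GMP, 0.150 in LSC, 0 and 0 at 0 h and 168 in mAML. Mrc1, the mannose receptor of tissue macrophages, stayed low (2.07 CPM in GMP and 1.997 in mAML). All 18 genes of MHC class II and dendritic cells that reached 1 CPM were at least 2-fold higher (median 3.13). Cd74, the invariant chain, was at 4.79 CPM in GMP, 6.58 in LSC, 2.08 and 4.89 at 0 h and 169 in mAML, and H2-Aa, a class II chain, at 3.47 CPM in GMP, 3.27 in LSC, 0.0944 and 0.319 at 0 h and 64.9 in mAML.

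Receptors and effectors of innate immunity followed. Of Toll-like receptor genes and adaptors, 15 of 22 were at least 2-fold higher (median 1.46); Tlr13, a sensor of bacterial RNA, was at 0.490 CPM in GMP, 4.61 in LSC, 3.11 and 3.93 at 0 h and 242 in mAML, Tlr2 at 19.6 CPM in GMP and 172 in mAML, and Tlr4 at 19.2 CPM in GMP and 16.5 in mAML. Of the phagocyte oxidase genes, 7 of 9 were higher (median 1.33). Cybb, its catalytic subunit, was at 133 CPM in GMP, 406 in LSC, 2.83 and 0.850 at 0 h and 1611 in mAML (log2 ratio 3.59, interval 3.55 to 3.64), nearly silent in the 0 h libraries and not in LSC. Ncf1, a cytosolic subunit, was at 378 CPM in GMP, 1018 in LSC, 385 and 344 at 0 h and 948 in mAML. Of Fc receptor genes 7 of 9 and of C-type lectin genes 8 of 12 were higher, with Fcgr3, expressed by GMP, within 2-fold (335 CPM in GMP and 419.9 in mAML). Il1b, the inflammatory cytokine, was at 0.113 CPM in GMP, 0.922 in LSC, 0 and 0.106 at 0 h and 38.8 in mAML (3 counts in GMP), and inflammasome and IL-1 genes were at least 2-fold higher in 12 of 19. Alox5, which starts leukotriene synthesis, was at 4.67 CPM in GMP, 16.4 in LSC, 1.79 and 0.850 at 0 h and 69.3 in mAML, and Lta4h, which completes leukotriene B4, at 1029 CPM in GMP, 1109.7 in LSC, 1052 and 731 at 0 h and 303 in mAML. Eicosanoid genes thus went both ways, 11 of 21 being at least 2-fold higher and 5 lower.

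Of chemokine and chemokine receptor genes, 17 of 18 were at least 2-fold higher (median 3.71) and 1, Pf4, was lower. Ccl3, a monocyte and neutrophil attractant, was at 1.47 CPM in GMP, 25.4 in LSC, 13.8 and 55.3 at 0 h and 213 in mAML, and Ccr1, one of its receptors, at 3.88 CPM in GMP, 26.2 in LSC, 44.9 and 45.5 at 0 h and 206 in mAML. Cxcr4, the marrow retention receptor, was at 183 CPM in GMP, 352 in LSC, 264 and 237 at 0 h and 809.9 in mAML. Integrin and selectin genes were higher in 11 of 20 (median 1.26): Itgb2, the partner chain of Itgam, was at 69.3 CPM in GMP, 462 in LSC, 282 and 316 at 0 h and 979 in mAML. Cytokine receptor genes were at least 2-fold higher in 19 of 28 and lower in 3 (Kit, Il5ra and Il1rap). Il13ra1, a receptor chain for IL-4 and IL-13, was at 0.339 CPM in GMP, 1.55 in LSC, 0.849 and 2.23 at 0 h and 119 in mAML (log2 ratio 7.95, interval 7.52 to 9.58), and Il6st, the shared gp130 chain, at 72.8 CPM in GMP, 1.89 in LSC, 0.0944 and 0.213 at 0 h and 238 in mAML. Il6st was under 2 CPM in every LSC library and above GMP in mAML.

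Transcription factors of myeloid maturation were mostly higher: 27 of 44 by at least 2-fold (median 1.33) and 1, Gfi1, lower. Gfi1, a repressor needed for neutrophil fate, was at 125 CPM in GMP, 369.6 in LSC, 254 and 215 at 0 h and 18.7 in mAML (log2 ratio -2.72, interval -2.85 to -2.62), with mAML lowest. Spi1, the gene of PU.1, was at 174 CPM in GMP, 355 in LSC, 171 and 165 at 0 h and 383 in mAML (log2 ratio 1.14, interval 1.09 to 1.18). Cebpb, the C/EBP factor of emergency granulopoiesis, was at 37.3 CPM in GMP, 123 in LSC, 126 and 143 at 0 h and 258 in mAML (log2 ratio 2.78, interval 2.69 to 2.88). Cebpa was at 189 CPM in GMP, 194 in LSC, 855 and 707 at 0 h and 161 in mAML and Cebpe, the factor of secondary granules, at 54.1 CPM in GMP, 183 in LSC, 162 and 134 at 0 h and 58.7 in mAML, so neither differed from GMP by 2-fold in mAML. Irf8 was 2.27-fold above GMP (log2 ratio 1.18, interval 1.15 to 1.21) and 5.16 on the log2 scale above LSC. Irf5, Klf2 and Irf4 were at 25.4 and 311, 4.48 and 268 and 0 and 26.03 CPM in GMP and mAML, with 0 counts of Irf4 in GMP, which makes it at least 230.3-fold higher against a floor of 3 counts per library.

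Immediate-early genes, which respond to signals within minutes, were at least 2-fold higher in 29 of 30 (median 3.83). Fos was at 75.7 CPM in GMP, 208 in LSC, 16.99 and 6.48 at 0 h and 1094 in mAML, and Dusp1, a phosphatase that ends MAP kinase signals, at 10.9 CPM in GMP, 261 in LSC, 10.7 and 11.5 at 0 h and 561 in mAML. The single LSC library was above GMP and both 0 h libraries for these 2 genes, between them and mAML. The sources used here do not say how cells were handled before lysis, and its part in the result was not tested. Lysosome genes were at least 2-fold higher in 20 of 39 (median 1.23), with Psap, prosaposin, at 648 CPM in GMP, 279 in LSC, 665 and 677 at 0 h and 4185 in mAML. Cd63, a granule and lysosome tetraspanin, was the exception in size, at 219.7 CPM in GMP, 283 in LSC, 767 and 668 at 0 h and 24.03 in mAML (log2 ratio -3.18, interval -3.29 to -3.10).

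Growth lists differed, and only MYC-associated and nucleolar genes were mostly lower in mAML by 2-fold or more. Of 48 MYC-associated and nucleolar genes, 38 were at least 2-fold lower and none higher (median -1.42). Ncl, nucleolin, was at 2036 CPM in GMP, 1079 in LSC, 902 and 929 at 0 h and 724 in mAML, and Odc1, the first enzyme of polyamine synthesis, at 259.7 CPM in GMP, 166 in LSC, 219 and 225 at 0 h and 62.8 in mAML. Tfrc, the transferrin receptor, was at 175 CPM in GMP, 108 in LSC, 178 and 135 at 0 h and 27.6 in mAML (log2 ratio -2.65, interval -2.75 to -2.57). For Ncl the LSC libraries were also below GMP, and for Odc1 and Tfrc mAML stood apart from all 4 others. Ribosomal protein genes were within 2-fold in all but 2 of 76 (median -0.25; pseudogenes may share their reads), and respiratory chain genes in all but 2 of 46 (median -0.51).

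Lists of cell cycle genes differed in their share of lower genes. Mki67, the proliferation marker Ki-67, was at 795 CPM in GMP, 1092 in LSC, 537 and 554 at 0 h and 481 in mAML (log2 ratio -0.72, interval -0.75 to -0.70). Of DNA replication genes, 16 of 47 were at least 2-fold lower and none higher (median -0.92), with Rrm2, a ribonucleotide reductase subunit, at 250.5 CPM in GMP, 138 in LSC, 72.8 and 65.4 at 0 h and 90.2 in mAML. Of mitosis genes, 4 of 50 were lower by as much, a share below the background, and none higher (median -0.74), with Cdk1 at 196 CPM in GMP, 273 in LSC, 123 and 117 at 0 h and 87.3 in mAML. mAML was lowest for Mki67 and Cdk1, and for Rrm2 it lay between LSC and the 0 h libraries. Of CDK inhibitor and G1 genes, 8 of 21 were at least 2-fold higher and 3 lower (median 0.24), and the cyclin D genes parted: Ccnd2 was at 212 CPM in GMP, 3.19 in LSC, 194 and 197 at 0 h and 12.3 in mAML and Ccnd3 at 124 CPM in GMP, 437 in LSC, 274 and 288 at 0 h and 679.5 in mAML. Cdkn2c and Cdkn2d, inhibitors of CDK4 and CDK6, were at 27.2 and 209 and 15.98 and 113 CPM in GMP and mAML. E2f2, an S-phase factor, was at 18.8 CPM in GMP, 21.3 in LSC, 43.3 and 41.5 at 0 h and 250.5 in mAML (log2 ratio 3.73, interval 3.61 to 3.87).

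Stem and progenitor genes were at least 2-fold lower in 13 of 23 and higher in 2 (Flt3 and Hhex), with a median of -1.29. Tal1, a stem cell factor, was at 26.5 CPM in GMP, 0.0748 in LSC, 60.5 and 50.9 at 0 h and 0.227 in mAML, low in the single LSC library as in mAML. Sox4, a factor of immature cells, was at 39.4 CPM in GMP, 6.51 in LSC, 45.9 and 45.5 at 0 h and 9.21 in mAML. Adgrl4, an adhesion receptor, was at 80.9 CPM in GMP, 76.6 in LSC, 0 and 0 at 0 h and 33.02 in mAML. Erg, Lyl1 and Lmo2, transcription factors of stem and progenitor cells, were within 2-fold of GMP (51.6 and 69.5, 161 and 251 and 197 and 289 CPM).

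The 15 genes with the largest ratios, passing over unnamed gene models, included stefin A genes, paired immunoglobulin-like receptor genes (Pira2, Pira6, Pira7 and Pira11), Olfm4, Chil1, Ngp and Xist. The Pira genes are near-identical copies and their reads may be split; Pira6 had 0 counts in GMP and was at least 1249.5-fold higher. Hpgd, which degrades prostaglandins, was at 0.716 CPM in GMP, 1252 in LSC, 0 and 0 at 0 h and 1629 in mAML (log2 ratio 10.89, interval 10.51 to 11.88), high in mAML and LSC and 0 in both 0 h libraries. Thbs1, thrombospondin 1, was at 0.603 CPM in GMP, 10.3 in LSC, 4569 and 4386 at 0 h and 808 in mAML (log2 ratio 10.08, interval 9.69 to 11.19), highest in the 0 h libraries. Wfdc17, a small secreted protein of myeloid cells, was at 0.226 CPM in GMP, 2.42 in LSC, 2.64 and 4.46 at 0 h and 217 in mAML, high in mAML alone.

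The 15 genes with the lowest ratios included Mpo and Kit, and Epx, Prg2, Ear1, Ear6 and Prss34, genes of eosinophil and basophil granules. Epx, eosinophil peroxidase, was at 165 CPM in GMP, 0.0249 in LSC, 22.5 and 58.3 at 0 h and 0.0681 in mAML, with 3 counts in mAML (log2 ratio -9.62, interval -13.52 to -9.69). Maoa, a monoamine oxidase, was at 29.5 CPM in GMP, 0 in LSC, 0.189 and 0.106 at 0 h and 0 in mAML and was at least 433-fold lower in mAML. Ak4, a mitochondrial adenylate kinase, was at 65.5 CPM in GMP, 0.673 in LSC, 281 and 253 at 0 h and 0.113 in mAML, and Rab38, a GTPase of secretory organelles, at 26.6 CPM in GMP, 0.150 in LSC, 127 and 117 at 0 h and 0.0454 in mAML. Both were high in the 0 h libraries and low in LSC and mAML. Smo, the Hedgehog signal transducer, was at 35.3 CPM in GMP, 0.0997 in LSC, 0.189 and 0.106 at 0 h and 0.0681 in mAML, high in GMP alone. Far2, a fatty acyl reductase, was at 28.7 CPM in GMP, 26.97 in LSC, 57.4 and 59.5 at 0 h and 0.0454 in mAML, low in mAML alone.

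Markers of other cells were measured beside these results. Eosinophil, mast cell and basophil markers summed to 1056 CPM in GMP, 160.2 in LSC, 499 and 568 at 0 h and 108 in mAML, a sum that includes Epx, Prg2, Ear6 and Prss34 named above. T and NK cell markers summed to 8.63 CPM in GMP, 8.53 in LSC, 17.5 and 15.2 at 0 h and 323 in mAML, and all 26 were at least 2-fold higher in mAML, with Cd3e at 0 CPM in GMP and 5.99 in mAML, Il2rb at 0.188 CPM in GMP and 53.3 in mAML and Ccl5 at 0.151 CPM in GMP and 36.7 in mAML. B and plasma cell markers summed to 36.3 CPM in GMP, 44.7 in LSC, 2.55 and 2.44 at 0 h and 152 in mAML. Most of the GMP and LSC sums was Cd79b (28.1 CPM in GMP, 35.2 in LSC and 42.6 in mAML). Of 8 such markers with at least 1 CPM, 5 were at least 2-fold higher in mAML and 1 lower. Jchain, the joining chain of secreted antibodies, was at 0.0377 CPM in GMP, 7.08 in LSC, 0 and 0 at 0 h and 72.8 in mAML. Ms4a1 and Pax5 were at 0.250 and 0.113 CPM in mAML. Erythroid markers summed to 267 CPM in GMP, 114 in LSC, 262 and 220.5 at 0 h and 1298 in mAML. Most of the mAML sum was globin (Hba-a1 at 39.9 CPM in GMP and 600.1 in mAML). Most of the sum in each other library was Tfrc (175 CPM in GMP, 108 in LSC, 178 and 135 at 0 h). Of 11 erythroid markers with at least 1 CPM, 7 were at least 2-fold higher in mAML and 4 lower. Gata1 was at 1.54 CPM in GMP and 0.113 in mAML. Globin genes are near-identical copies and their reads may be split. Megakaryocyte markers summed to 34.02 CPM in GMP, 22.7 in LSC, 378 and 344 at 0 h and 39.6 in mAML, and were highest at 0 h, mostly through Itga2b (318 and 262 CPM at 0 h). Stromal and endothelial markers summed to 166 CPM in GMP, 179.9 in LSC, 804 and 795 at 0 h and 237 in mAML, most of the 0 h sums being Pecam1 (775 and 685 CPM). Of the 9 stromal and endothelial markers with at least 1 CPM in mAML or GMP, 6 were at least 2-fold higher in mAML and 1, Vcam1, was lower (median 3.15). Col1a2, a collagen chain, was at 0.0754 CPM in GMP, 0.174 in LSC, 0.0944 and 1.81 at 0 h and 7.38 in mAML, and Cxcl12, a stromal chemokine, at 1.02 CPM in GMP, 1.27 in LSC, 0 and 0.213 at 0 h and 18.7 in mAML; both were highest in mAML. The nuclear RNA Malat1 was at 42.5 CPM in GMP, 119 in LSC, 245 and 250.1 at 0 h and 144 in mAML. The part of these cells in the results was not tested. Without the marker genes of other cells, 823 genes were at least 4-fold higher in mAML and 250 lower. This count drops the listed genes only, not other transcripts of such cells, so it does not measure their part.

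Genes of the sex chromosomes also differed. The Y-linked genes Ddx3y, Eif2s3y, Kdm5d and Uty summed to 151.0 CPM in GMP, 0.0748 in LSC, 0.189 and 0.213 in the 0 h LSC libraries and 3.29 in mAML, which is 2.18% of GMP. Xist, the X-inactivation transcript, was at 0.0377 CPM in GMP, 319 in LSC, 184 and 367 at 0 h and 194 in mAML. The GMP library had the pattern of a male source and the leukemia libraries that of a female source, so sex of the source and leukemia cannot be told apart, and the Y-linked RNA in mAML was above that of LSC.

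**Figure D5:**
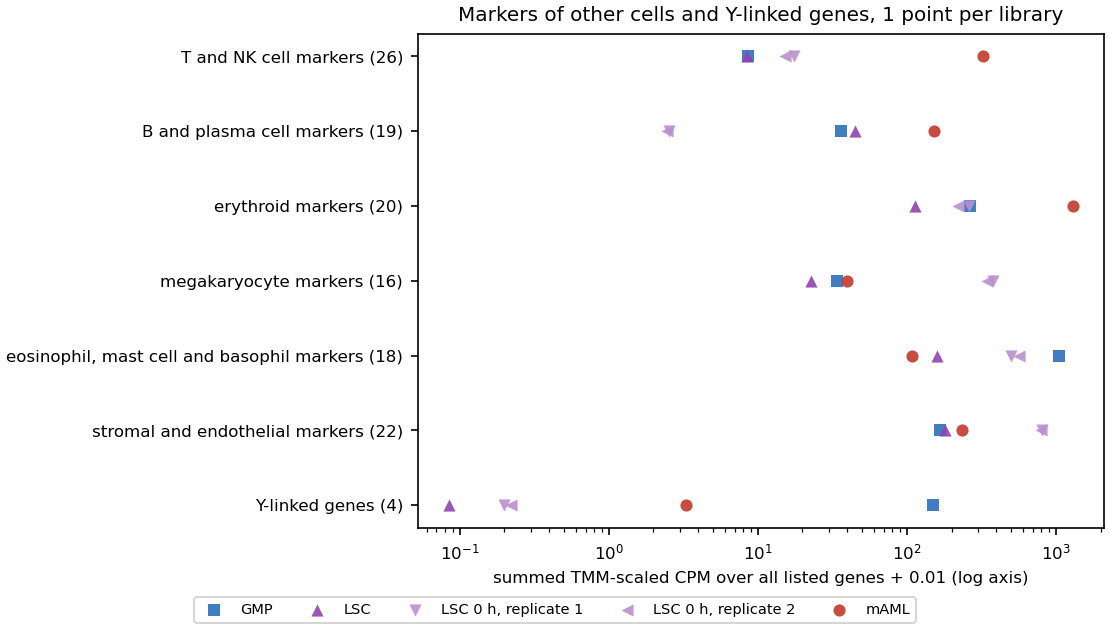
Summed level of each list of other-cell markers and of 4 Y-linked genes (rows, with the number of genes) in 5 libraries, in TMM-scaled CPM plus 0.01 on a log axis, with 1 point per library. T and NK cell markers are at 323 CPM in mAML and under 18 CPM elsewhere, and Y-linked genes are at 151.0 CPM in GMP and 3.29 in mAML.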

How the data were processed

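The series measured mRNA from mouse bone marrow cells by sequencing. The authors' tools were STAR and RSEM on mm9, per the submitters' processing notes, with versions and settings not given in the sources used here. Files hold an expected count and a TPM for each of 24328 genes, per the file headers. The deposited expected counts are RSEM's estimate of reads for a gene and carry no scaling. The deposited TPM are scaled for transcript length and depth. The deposited transcript lengths, not the effective lengths, were used only to remove a trend on length.

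Expected counts were rounded, scaled by TMM (edgeR 4.0.16 in R 4.3.3, fitted over GMP, LSC and mAML, with the other libraries on the same reference) and expressed as CPM. Ratios used a prior count of 5, and intervals are exact (Clopper-Pearson, scipy 1.17.1) at 95% on the unadjusted counts. An interval thus need not be centred on its ratio, and at low counts the ratio can lie outside it, as for Epx. A library at 0 counts was set to a floor of 3 counts per library for a bound. The higher library had to reach 10 CPM for counts of genes, made at 4-fold, and 1 CPM for list members, counted at 2-fold. The ratio script was checked on simulated counts with known folds. Genes named are fixed genes, the 15 largest ratios each way (passing over globin, immunoglobulin, T-cell receptor, small RNA and unnamed models), up to 6 members per list by ratio with at least 10 CPM, the 10 at each end of the genes chosen at 0 h, and the 10 closest to Hoxa9 across 5 libraries; some members outside the rule are named for their role and were chosen after their values were seen. The members and all 44 lists were chosen with earlier results of these data known. Alternatives were library-size, DESeq2 (1.42.0), 2-library TMM and log2(TPM + 1) scales, a prior count of 0.5, other minimum levels, removal of the length trend, other choices of the 0 h genes and each 0 h library left out. The later A-485 times served only for the spread between duplicates. Promoters are from RefSeq (GRCm38.p6). Some listed genes are not reported here by name.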

Additional observations from a re-analysis of the deposited data

How the results depend on the processing

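Against 843 genes higher and 263 lower in mAML by 4-fold, the counts were 1412 and 593 at a minimum of 1 CPM and 1567 and 664 with no minimum, and 129 genes were lower at a minimum of 30 CPM; fewer or more genes enter under these minimums. Under library-size scaling they were 726 and 345, and on the log2(TPM + 1) scale 613 and 281; the all-gene median shifted by -0.21 and -0.29 on these scales. The HoxA median (3.59) was 2.51 on the log2(TPM + 1) scale, where the added 1 shrinks low genes. The median of MLL-fusion targets (1.58) was 1.05 on that scale and 1.23 over members with at least 10 CPM. Medians near 0 changed sign: the fusion complex (0.03) to -0.18 with library size and -0.27 with TPM, CDK inhibitors and G1 (0.24) to -0.060 with TPM, and glycolysis and hypoxia (0.08) to -0.14, -0.23 and, over members with at least 10 CPM, -0.029. The megakaryocyte median (0.67, 7 members) was -1.32 over members with at least 10 CPM. Genes higher in 0 h LSC had a median of 0.57 in mAML over LSC, and 0.97 when chosen at 8-fold; genes lower had 0.49, and -0.094 when chosen at 2-fold (the cause was not tested). Leaving out either 0 h library gave 0.53 to 0.58 and 0.46 to 0.49. Of 1455 values of the 291 named genes under the alternatives, none changed the sign of a difference of at least 2-fold. However, 436 were classed as moved rather than the same, 250 of them on the log2(TPM + 1) scale and 142 with library-size scaling. No paired analysis was possible because mAML and GMP have 1 library each. The floor of 3 counts was 0.113 CPM in GMP and 0.0681 in mAML, so a lower level rests on 1 or 2 counts or on none, and differences between cultures or animals could not be measured.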

Other observations

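Interferon-response genes were at least 2-fold higher in mAML than in GMP in 21 of 37 and lower in 1 (median 1.26). Irf7, a master regulator of type I interferon, was at 2.34 CPM in GMP, 2.52 in LSC, 3.96 and 3.83 at 0 h and 45.5 in mAML, and Ifi27l2a, an interferon-induced membrane protein, at 0.641 CPM in GMP, 0.523 in LSC, 0.944 and 0.850 at 0 h and 47.7 in mAML. Both were high in mAML alone. Samd9l, an antiviral and growth-restricting gene, was at 12.3 CPM in GMP, 32.6 in LSC, 199.6 and 138 at 0 h and 109 in mAML, and the 0 h libraries were highest. Ly6e was abundant in all 5 libraries and lowest in LSC (1102 CPM in GMP, 229.8 in LSC, 1195 and 1015 at 0 h and 2018 in mAML).

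Genes of cell death and of p53 were also higher in part. BCL2-family genes were at least 2-fold higher in 10 of 15 and lower in none (median 1.39). Mcl1, a survival factor of myeloid cells, was at 149 CPM in GMP, 186 in LSC, 248 and 226 at 0 h and 472 in mAML, and Bcl2 at 70.7 CPM in GMP, 10.5 in LSC, 67.3 and 64.5 at 0 h and 46.6 in mAML. The pro-death genes Bmf, Pmaip1 and Bbc3 were at 1.88 and 59.1, 3.13 and 55.96 and 1.43 and 14.7 CPM in GMP and mAML. Of p53 target genes, 10 of 23 were higher and 2 lower; Cdkn1a, the CDK inhibitor p21, was at 7.35 CPM in GMP, 4.59 in LSC, 223 and 254 at 0 h and 30.6 in mAML and Perp at 1.02 CPM in GMP, 0.0748 in LSC, 362 and 343 at 0 h and 0.0908 in mAML, so both were highest in the 0 h libraries.

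Metabolic lists were closer to GMP. Sterol synthesis genes were at least 2-fold higher in 7 of 22 and lower in none (median 0.59). Glycolysis and hypoxia genes summed to 8814 CPM in GMP, 10902 in LSC, 24688 and 26126 at 0 h and 9691 in mAML. Bnip3, a hypoxia-induced mitophagy receptor, was at 17.3 CPM in GMP, 29.1 in LSC, 859 and 800.2 at 0 h and 30.8 in mAML and Egln3 at 70.9 CPM in GMP, 21.7 in LSC, 795 and 697 at 0 h and 6.63 in mAML. These 2 genes separated the 0 h libraries from the 3 single libraries.

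The genes whose log2 levels across the 5 libraries were closest to those of Hoxa9 included Ets1, Epha7, Eya1 and Hoxa3; no correlation is given for 5 libraries. Ets1, a transcription factor, was at 22.3 CPM in GMP, 68.00 in LSC, 55.2 and 60.2 at 0 h and 59.00 in mAML, and Epha7, an ephrin receptor, at 9.12 CPM in GMP, 176 in LSC, 75.3 and 111 at 0 h and 86.8 in mAML. Their order of libraries follows from this choice.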
